A study of Mus musculus with 6 samples.

Results

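Growth factor receptor tyrosine kinases and their ligands were described in mDCT15 cells, a mouse line from the distal convoluted tubule, by the level of each transcript. The genes were picked out by a rule on their symbols and cover the EGF, HGF, GDNF, stem cell factor, CSF1, FLT3, TAM, FGF, PDGF, VEGF, discoidin, neurotrophin and angiopoietin receptor families, without the IGF genes. The GENCODE annotation of GRCm39 holds 75 genes that match these symbols, and 57 of them had a row among the 20624 genes of the deposited table. These were 23 receptors, 33 secreted or membrane-bound ligands and 1 FGF homologous factor that stays inside the cell. None of these 57 symbols occurred more than once in the table.

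The RNA came from 3 samples of *Pkd1-/-* mDCT15 cells, edited with CRISPR-Cas9, and 3 samples of wild type mDCT15 cells, all grown in medium with 5% fetal bovine serum, itself a source of growth factors. The titles call the edited cells *Pkd1-/-*, while the genotype field calls them a knockdown of PKD1. Whether the edited line is 1 clone is not given in the sources used here. No other treatment, allele or time point separated the groups.

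Every level given here is the authors' mean normalized count over all 6 libraries, so that it mixes both genotypes and carries no spread between replicates. It therefore gives neither the level in *Pkd1-/-* cells nor that in wild type cells, and the comparison between the genotypes was not made. The order of genes with close values cannot be tested, since their spread is unknown. Longer transcripts yield more reads, so that ratios between genes are given per kb of exon. Means, percentiles and counts of genes past a mean are not corrected for length.

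The means added up to 16746088 over all genes, of which 8.08% lay in the rows of *Gm26917* and *Gm42418*, and the depth of single libraries is unknown. *Pkd1* had a mean of 3175, which as a pooled value checks no genotype label. Of 13 listed markers of the distal convoluted tubule, 7 had a row and 4 had a mean of at least 100, among them *Wnk1* (8468), *Kcnj16* (428) and *Wnk4* (413). *Slc12a3*, which encodes the sodium chloride cotransporter that defines this segment, had no row, and neither did *Pvalb* or *Calb1*. Of 8 listed epithelial genes, 4 had a row and 3 had a mean of at least 100. These were the kidney epithelial factors *Pax8* (4905) and *Pax2* (2428), and *Epcam* (115). *Krt8* had a mean of 0.98, and *Cdh1*, *Krt18*, *Krt19* and *Cldn7* had no row. The mean of *Vim*, a mesenchymal intermediate filament gene chosen after its value was seen, was 17450. Of 4 listed genes of the proximal tubule, the receptor genes *Lrp2* and *Cubn* had means of 8826 and 169, and the transporter genes *Slc5a2* and *Slc34a1* had means of 2.77 and 2.04. The label of the cells thus rests on a part of its markers, and the cells are named here as mDCT15 only.

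Receptor tyrosine kinases span the plasma membrane, pair up when a ligand binds, and phosphorylate tyrosines that recruit adaptors of the RAS-ERK and PI3-kinase pathways. A cell can respond to a ligand it makes itself, to one made by neighbouring cells, or to one carried in serum. In the kidney, EGF receptor, MET and FGF receptor signals are known for their part in tubule growth and repair, and PDGF and VEGF are known as signals from epithelium to mesenchyme and vessels.

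A larger share of the receptors than of the ligands had a mean of at least 100, a difference that was not tested. A mean of at least 100 was found for 26 of the 57 genes (45.6%), against 50.3% of all genes of the table and 72.9% of its 13862 protein-coding genes. All 57 genes are protein-coding, so the last share is the like-for-like background. The share was 14 of 23 for the receptors (60.9%) and 12 of 33 for the ligands (36.4%). The median mean, not corrected for length, was 366 for receptors and 33.9 for ligands, against 474 for the protein-coding genes. The median level per kb of exon was 39.6 for receptors and 7.45 for ligands, against 72.7 for the protein-coding genes. With the longest transcript in place of all exons these medians were 74.9, 8.45 and 110.4. A mean under 10 was found for 17 of the 57 genes (29.8%), against 14.7% of the protein-coding genes. Counted against the annotation, 51.9% of the 27 receptors and 27.3% of the 44 ligands had a mean of at least 100, against 46.4% of all 21770 protein-coding genes.

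**Figure D1:**
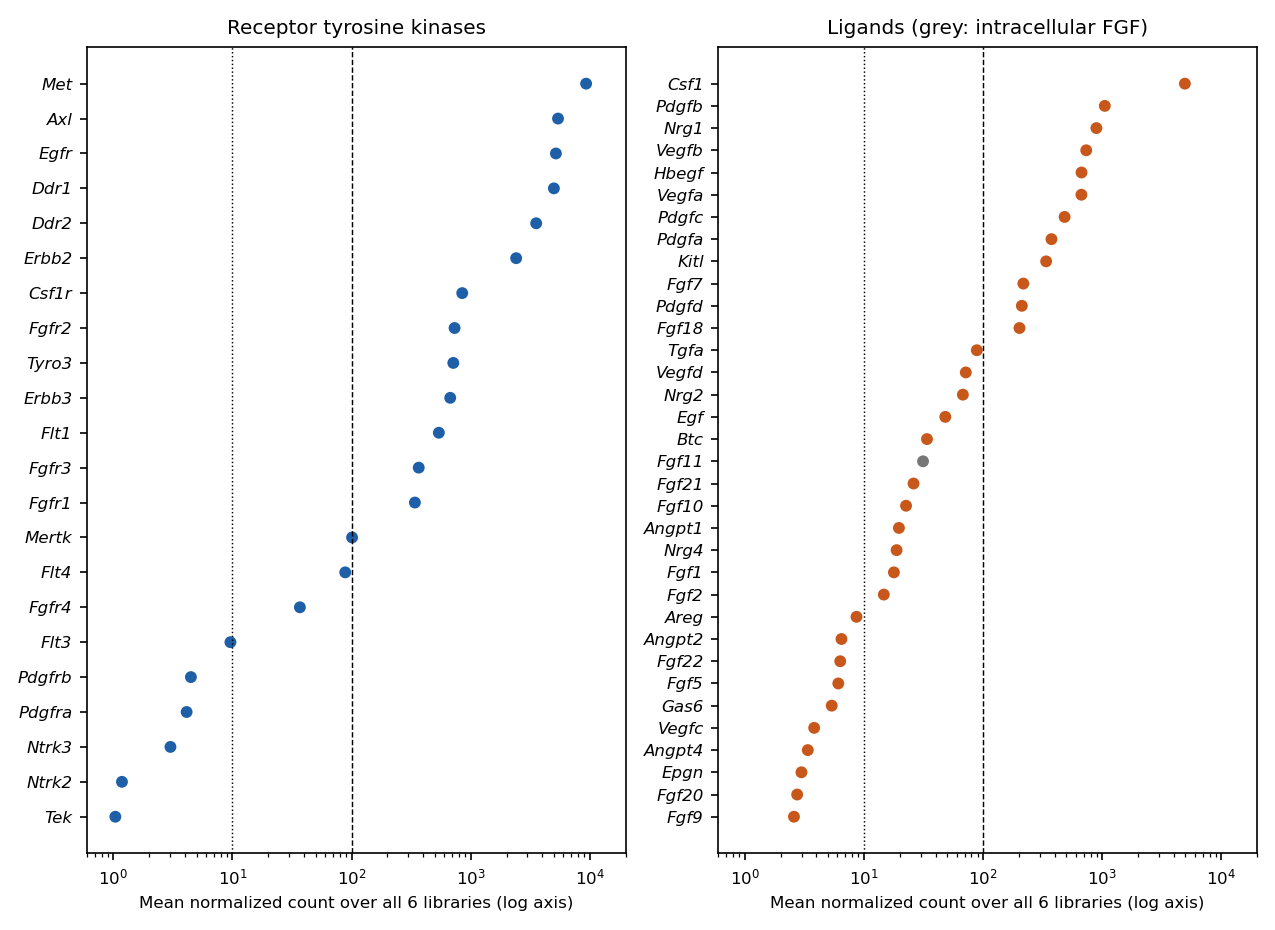
Mean normalized count over all 6 libraries on a log axis for 22 of the 23 receptors (blue) and for the 33 ligands and 1 intracellular FGF (orange and grey) that had a row. The dashed line marks a mean of 100 and the dotted line a mean of 10. *Met* (9321) and *Csf1* (4959) lead the 2 panels, and 6 receptors but 2 ligands have a mean of at least 1000.

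The 250 bases before the annotated start of 3 of the genes whose mean reached 100 are shown as examples of low and high CpG content. These are *Axl*, a receptor with one of the highest means, and 2 genes at the ends of the range of CpG dinucleotides among members whose mean reached 100, *Pdgfd* and *Fgf18*. The windows end 1 base before the start of the canonical GENCODE transcript, and whether mDCT15 cells use this start was not tested. The windows were read from GRCm39 5′ to 3′ on the strand of the gene, and show CpG dinucleotides in capitals. The positions are chr7:25488330-25488579 on the minus strand for *Axl*, chr9:6167990-6168239 on the plus strand for *Pdgfd* and chr11:33097829-33098078 on the minus strand for *Fgf18*.
Axl: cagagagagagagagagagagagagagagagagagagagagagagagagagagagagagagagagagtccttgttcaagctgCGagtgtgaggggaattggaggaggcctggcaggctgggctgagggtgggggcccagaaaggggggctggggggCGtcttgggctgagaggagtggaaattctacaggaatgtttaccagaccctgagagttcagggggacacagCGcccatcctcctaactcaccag
Pdgfd: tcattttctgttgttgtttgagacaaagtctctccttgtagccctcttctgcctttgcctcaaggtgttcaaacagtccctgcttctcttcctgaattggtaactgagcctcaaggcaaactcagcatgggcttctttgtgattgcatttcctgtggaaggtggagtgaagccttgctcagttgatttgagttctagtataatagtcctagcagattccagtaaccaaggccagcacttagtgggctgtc
Fgf18: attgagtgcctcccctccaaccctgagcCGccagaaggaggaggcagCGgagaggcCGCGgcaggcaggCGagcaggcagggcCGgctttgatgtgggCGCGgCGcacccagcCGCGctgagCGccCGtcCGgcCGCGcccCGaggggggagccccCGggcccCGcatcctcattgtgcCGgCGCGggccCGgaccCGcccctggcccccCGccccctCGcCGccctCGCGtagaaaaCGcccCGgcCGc

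*Axl* had 3 CpG dinucleotides in this window at a mean of 5415. *Fgf18* had 32 and *Pdgfd* had 0, with means of 203 and 212. High and low CpG content thus both occurred among members whose mean reached 100. The 26 members whose mean reached 100 had a median observed over expected CpG ratio of 0.524, against 0.701 for the 10111 protein-coding genes at that mean. The 17 genes with a mean under 10 had a median of 0.465, against 0.326 for 2035 protein-coding genes. The members at these 2 levels therefore lay closer together in CpG content than protein-coding genes of the same levels did, as medians that were not tested. The GC box GGGCGG, searched on both strands, was present in 15 of the 26 windows (57.7%), against 53.3% of the protein-coding genes at that level. It was present in 2 of 14 windows (14.3%) at means from 10 to 100, against 40.4%, and in 7 of 17 (41.2%) under 10, against 30.7%. The letters TATAAA, searched on both strands, were present in 2 of the 26 windows (7.69%), against 6.55%. They were present in 3 of 14 windows (21.4%) at means from 10 to 100, against 9.03%, and in 3 of 17 (17.65%) under 10, against 10.7%. These shares of few windows were not tested. The motifs cannot share bases with each other.

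**Figure D2:**
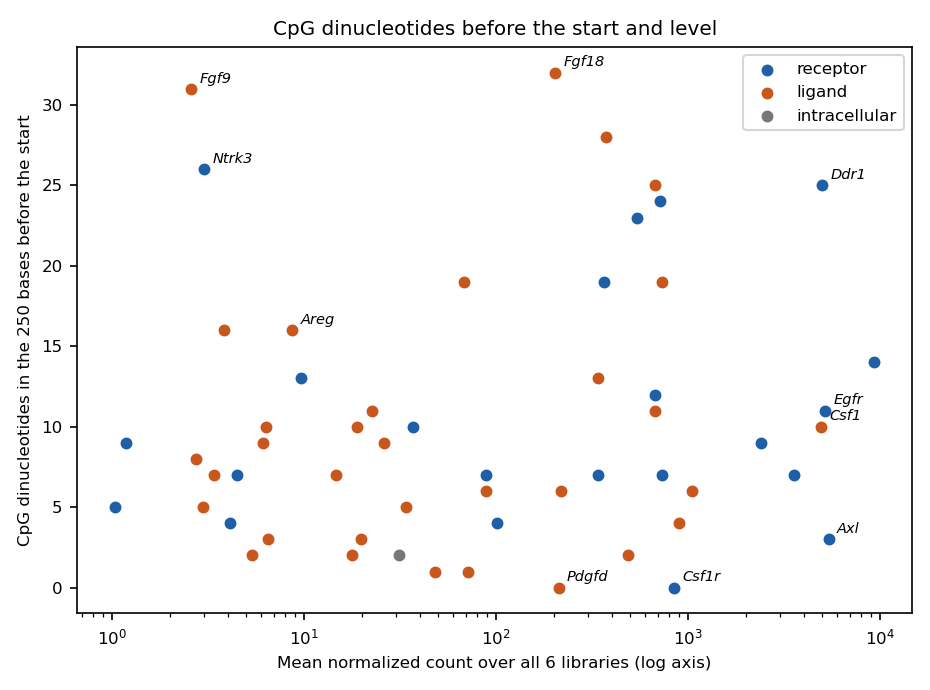
Number of CpG dinucleotides in the 250 bases before the start of each gene named here against its mean normalized count over all 6 libraries on a log axis, with 1 point per gene. Members whose mean reached 100 range from 0 CpG dinucleotides (*Pdgfd*, *Csf1r*) to 32 (*Fgf18*), and *Fgf9* has 31 at a mean of 2.59.

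The EGF receptor family was represented by 3 of its 4 receptors. *Egfr* (ENSMUSG00000020122, chromosome 11, 16702198 to 16868158, plus strand), the receptor of EGF, TGF-alpha, amphiregulin and HB-EGF, had a mean normalized count of 5198, above 97.9% of all genes. *Erbb2* (chromosome 11, 98303203 to 98328542), which has no known ligand and acts as a partner of the others, had a mean of 2411. Per kb of exon the values were 450 for *Egfr* and 445 for *Erbb2*, and with the mean transcript length they were 1319 and 585, so that their closeness depends on the length used. *Erbb3*, a neuregulin receptor with little kinase activity of its own, had a mean of 674, and its level of 107 per kb was 4.16 times lower than that of *Erbb2*. *Erbb4*, the other neuregulin receptor, had no row.

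Of the 11 annotated EGF family ligands 9 had a row and 2 had a mean of at least 100. *Nrg1*, a neuregulin that binds ERBB3 and ERBB4, had a mean of 896, and *Hbegf*, a heparin-binding ligand of EGFR, had a mean of 672. Per kb the order of these ligands was turned, with 132 for *Hbegf* and 53.7 for *Nrg1*, whose annotated exons cover 16689 bases. With the mean transcript length this ratio of 2.45 fell to 1.07. Other ligands of the same receptors were counted far less. The means were 88.8 for *Tgfa*, 67.8 for *Nrg2*, 48.3 for *Egf*, 33.9 for *Btc* and 18.8 for *Nrg4*. *Areg* (8.67) and *Epgn* (2.99) had means under 10, and *Ereg* and *Nrg3* had no row. *Hbegf* stood 10.1 times above *Tgfa* per kb, so that among the ligands that bind EGFR it was the leading transcript. Exons of other annotated genes covered 16.3% of the exon bases of *Hbegf* and 25.4% of those of *Nrg2*.

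*Met* (ENSMUSG00000009376, chromosome 6, 17463749 to 17573979, plus strand), the receptor of hepatocyte growth factor, had the highest mean of all members. Its mean of 9321 lay above 99.4% of all genes, and its level of 1206 per kb made up 27.1% of the summed level of the 23 receptors. The level of *Met* per kb was 2.68 times that of *Egfr*. *Hgf*, the gene of its ligand, which is mostly made by mesenchymal cells, had no row.

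The TAM receptors bind GAS6 and protein S and are known for the uptake of dying cells and for restraint of inflammation. All 3 had a mean of at least 100, but at very different levels. *Axl* (ENSMUSG00000002602, chromosome 7, 25456535 to 25488329, minus strand) had a mean of 5415 and 590 per kb. *Tyro3* had a mean of 715 and 107 per kb, and *Mertk* had a mean of 101, just above the limit, and 21.0 per kb. *Axl* was thus 5.51 times above *Tyro3* and 28.1 times above *Mertk* per kb. The latter ratio was 54.4 with the longest transcript and 65.5 with the mean transcript length. *Gas6*, the only TAM ligand in the list and one that binds all 3 receptors, had a mean of 5.37. The gene of protein S was not in the list, and no level is given for it.

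The discoidin domain receptors are activated by collagen instead of a soluble factor. *Ddr1* (ENSMUSG00000003534, chromosome 17, 35992208 to 36015524, minus strand), the epithelial member, had a mean of 5000 and 833 per kb. *Ddr2* (chromosome 1, 169799876 to 169938331, minus strand), which is best known from mesenchymal cells, had a mean of 3550 and 382 per kb. Both were therefore among the 7 highest members on either scale. *Met*, *Ddr1*, *Axl* and *Egfr* together made up 69.2% of the summed level per kb of all receptors.

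*Csf1* (ENSMUSG00000014599, chromosome 3, 107648364 to 107667806, minus strand), the growth factor of macrophages, was the leading ligand. It had a mean of 4959 and 844 per kb, 40.0% of the summed level per kb of the 33 ligands. Its receptor gene *Csf1r* (chromosome 18, 61229714 to 61266535, plus strand) had a mean of 850 and 115 per kb, 7.31 times lower than *Csf1*. Since *Csf1r* is best known from macrophages, the listed genes of macrophages and leukocytes are given beside it. Of these 6, *Cd68* had a mean of 41.9 and *Ptprc* a mean of 5.37, while *Adgre1*, *Itgam*, *Tyrobp* and *Laptm5* had no row. Exons of other annotated genes covered 19.8% of the exon bases of *Csf1r*.

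Among the other receptors of the same structural class, *Kit* had no row and *Flt3*, known from blood progenitors, had a mean of 9.61. *Kitl*, which encodes stem cell factor, the ligand of KIT, had a mean of 339 and 40.6 per kb. The stem cell factor family was therefore represented by its ligand alone.

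All 4 PDGF ligands had a mean of at least 100, while both receptors had a mean under 10. *Pdgfb* had a mean of 1054 and 248 per kb, the second of the ligands. With the mean transcript length its level of 434 lay below those of *Vegfb* (492) and *Vegfa* (451). *Pdgfc* had a mean of 485 and 72.4 per kb, *Pdgfa* a mean of 376 and 55.6 per kb, and *Pdgfd* a mean of 212 and 23.0 per kb. Exons of other annotated genes covered 37.8% of the exon bases of *Pdgfa*. Their receptors, which mark mesenchymal cells, had means of 4.48 for *Pdgfrb* and 4.12 for *Pdgfra*. Of the 6 listed genes of fibroblasts and mesenchyme, *Col1a1* and *Acta2* had means of 201 and 110, *Dcn*, *Col1a2* and *Col3a1* had means from 2.44 to 6.01, and *Lum* had no row.

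The VEGF family was also weighted towards its ligands, but far less strongly. Its summed levels per kb were 50.3 for receptors and 409 for ligands, against 0.888 and 399 in the PDGF family. *Vegfb* had a mean of 736 and 226 per kb, and *Vegfa*, the main angiogenic factor of the kidney epithelium, had a mean of 671 and 156 per kb. *Vegfd* had a mean of 71.7 and *Vegfc*, a lymphatic growth factor, a mean of 3.83. Of the receptors, *Flt1*, which binds VEGF-A and VEGF-B, had a mean of 541 and 39.6 per kb, *Flt4*, the receptor of VEGF-C and VEGF-D, a mean of 88.5, and *Kdr*, the main signalling receptor of VEGF-A, had no row. Of 5 listed endothelial genes, *Pecam1* had a mean of 4.68 and the other 4, among them *Cdh5*, had no row. The VEGF-binding co-receptor genes *Nrp2* and *Nrp1* had means of 2533 and 821. *Tek*, the angiopoietin receptor of endothelium, had a mean of 1.04, and its ligand genes *Angpt1*, *Angpt2* and *Angpt4* had means of 19.7, 6.48 and 3.38.

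FGF receptors were expressed at middle levels. *Fgfr2* had a mean of 733 and 64.6 per kb, *Fgfr3* a mean of 366 and 41.5 per kb, and *Fgfr1* a mean of 340 and 26.6 per kb. *Fgfr4* had a mean of 36.8. Counts per gene do not tell the splice forms of these receptors apart, which decide the FGFs they bind. Of the 18 annotated FGF ligands 10 had a row and 2 had a mean of at least 100. *Fgf7*, a ligand of the epithelial form of FGFR2 that is best known from mesenchyme, had a mean of 218 and 49.7 per kb. *Fgf18* had a mean of 203 and, with its short exons, 91.7 per kb, 1.85 times above *Fgf7*.

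The other FGFs were low. *Fgf21* (26.1), *Fgf10* (22.6), *Fgf1* (17.9) and *Fgf2* (14.7) had means between 10 and 100, and *Fgf22*, *Fgf5*, *Fgf20* and *Fgf9* had means from 2.59 to 6.33. *Fgf3*, *Fgf4*, *Fgf6*, *Fgf8*, *Fgf15*, *Fgf16*, *Fgf17* and *Fgf23* had no row. Of the FGF homologous factors, which bind sodium channels inside the cell and are not secreted, *Fgf11* had a mean of 31.4, and *Fgf12*, *Fgf13* and *Fgf14* had no row. Klotho and beta-klotho are the co-receptors that FGF23, FGF15 and FGF21 need, and their genes *Kl* and *Klb* had no row.

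*Ret*, the receptor of the GDNF family, had no row, whereas its co-receptor gene *Gfra1* had a mean of 266. The neurotrophin receptors *Ntrk3* and *Ntrk2*, known from neurons, had means of 3.01 and 1.18.

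Receptor and ligand were both found at a mean of at least 100 in 4 of the 9 families for which the list holds both sides, namely the EGF, CSF1, FGF and VEGF families. In the TAM family the receptors passed this level and *Gas6*, its only listed ligand, did not. In the PDGF family the ligands passed and the receptors did not. The HGF receptor passed while *Hgf* had no row, and the stem cell factor ligand passed while *Kit* had no row. In the angiopoietin family neither side passed. The summed level per kb was 1001 for EGF receptors and 236 for their ligands, 141 for FGF receptors and 175 for their ligands, and 50.3 for VEGF receptors and 409 for their ligands. The order of the FGF sums turned with the length used, to 269 for receptors and 192 for ligands with the longest transcript and to 485 and 246 with the mean transcript length. The EGF sums were 1088 and 423 with the longest transcript and 2015 and 748 with the mean transcript length. The sum was 718 for TAM receptors and 0.976 for *Gas6*, and 0.888 for PDGF receptors and 399 for their ligands. Summed over all families, receptors stood 2.11 times above ligands per kb. The receptor sum includes the discoidin (1215), FLT3 (1.48) and neurotrophin (0.840) families, for which the list holds no ligand. The sums of all receptors and of all ligands are therefore not like for like. A transcript level says nothing of how much protein is made or released.

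**Figure D3:**
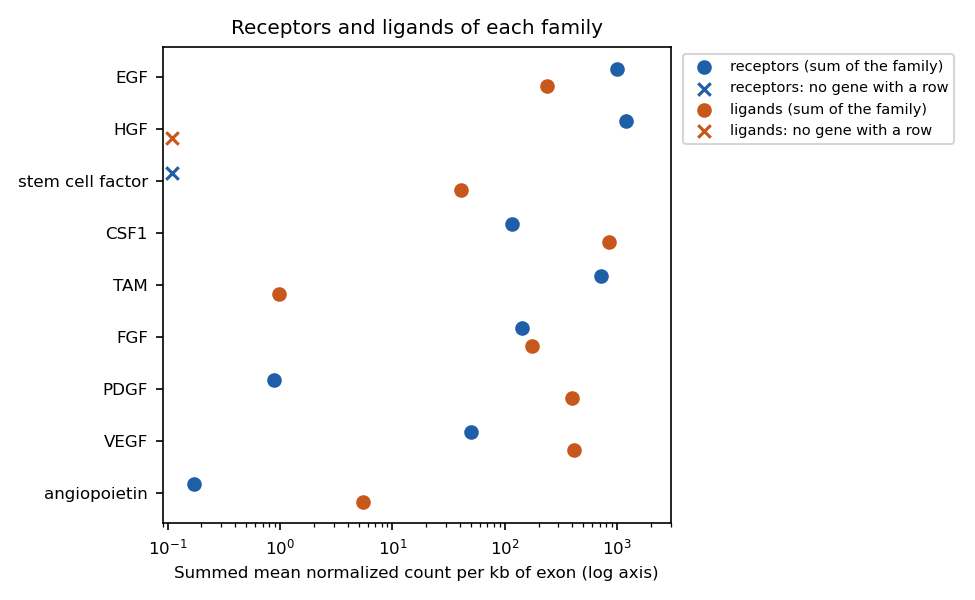
Summed mean normalized count per kb of exon on a log axis for the receptors (blue) and ligands (orange) of the 9 families with both sides in the list. Crosses at the left edge mark a side with no gene in the table and have no value. The FGF sums are 141 for receptors and 175 for ligands, an order that turns with the other 2 exon lengths, and those of the TAM and PDGF families lie far apart.

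The choice of exon length moved the level per kb of single genes. With the longest transcript in place of the union of all exons, the level of the 26 members whose mean reached 100 was higher by a median of 1.38 times and by up to 2.36 times, for *Nrg1*. *Axl* moved from 590 to 1166 per kb and so from below to above *Ddr1* (1138). Of the 10 highest members per kb, 9 remained with the longest transcript and 10 with the mean transcript length.

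**Figure D4:**
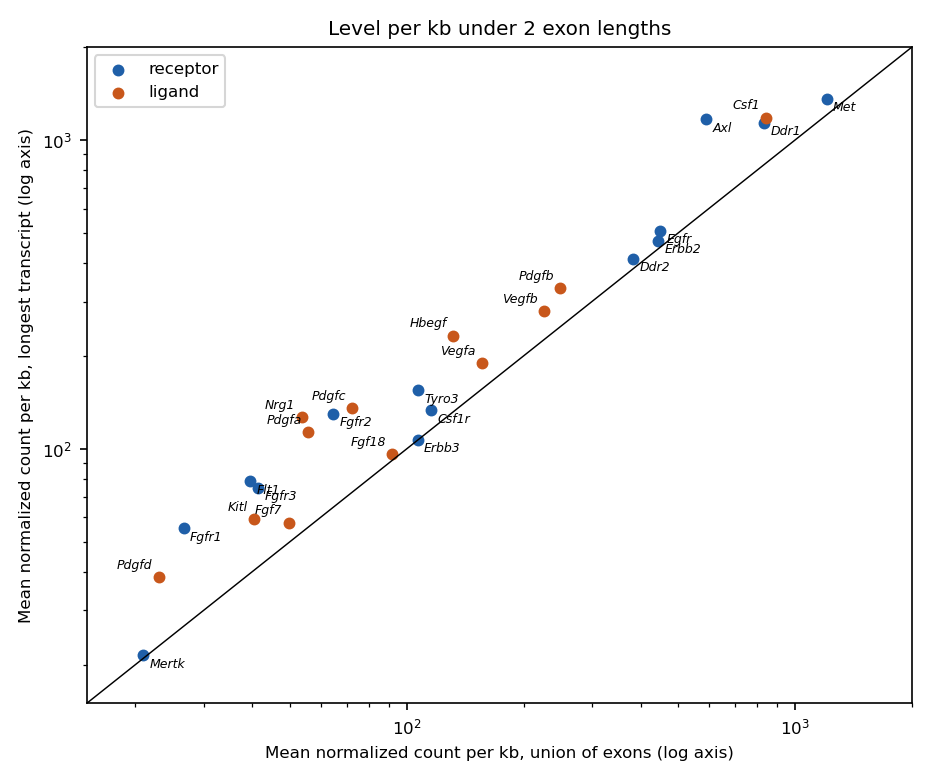
Mean normalized count per kb for the 26 members whose mean reached 100, with the union of all exons on the x axis and the longest transcript on the y axis, both on log axes. The line marks equal values, and *Nrg1* (53.7 and 127) and *Axl* (590 and 1166) lie well above it.

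Several members lie within 500 kb of the next member in the genome yet differed widely in level. Genes between them that are not members were not looked at. *Pdgfrb* and *Csf1r* lie on the same strand of chromosome 18 with 11.6 kb between them, and had means of 4.48 and 850. *Flt3* and *Flt1* lie 161 kb apart on chromosome 5, with means of 9.61 and 541. *Nrg2* and *Hbegf* lie 308 kb apart on chromosome 18, with means of 67.8 and 672. Per kb the higher gene stood 209 times above the lower one for *Csf1r* and *Pdgfrb*, 26.8 times for *Flt1* and *Flt3*, and 8.19 times for *Hbegf* and *Nrg2*. The *Flt1* ratio was 50.9 with the mean transcript length, and the *Hbegf* ratio was 13.6 with the longest transcript. In other clusters every gene was low or had no row. On chromosome 5, *Epgn*, *Ereg*, *Areg* and *Btc* follow each other with gaps of 39.1, 45.9 and 209 kb, and the highest mean among them was that of *Btc*, 33.9. In the row of *Pdgfra*, *Kit* and *Kdr* on the same chromosome, only *Pdgfra* had a row in the table, and the *Fgf3*, *Fgf4* and *Fgf15* cluster on chromosome 7 had none.

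The lists of genes that act around these receptors differed in how many of their genes reached a mean of 100, against 46.4% of annotated protein-coding genes and 72.9% of those with a row. Of 30 listed adaptors and signal carriers, 30 had a row and 29 had a mean of at least 100 (96.7%), with a median of 1980, among them *Grb2* (1842). Of 22 listed feedback inhibitors and turnover genes, all of which had a row, 21 had a mean of at least 100 (95.5%), and *Lrig1* (2487) and *Errfi1* (2296), both restraints of EGFR, were the highest of those named here. *Hgs*, which sorts activated receptors into endosomes, was listed with a mean of 0.648. No exon of another gene in GENCODE vM39 overlapped its exons, and whether its reads were lost in the authors' counting was not tested. Of 19 listed co-receptors, 13 had a row and 11 had a mean of at least 100, which is 57.9% of those listed and 84.6% of those with a row, led by the syndecan gene *Sdc4* (8118). Of 16 listed proteases and regulators that release ligands, 14 had a row and 10 had a mean of at least 100, which is 62.5% of those listed and 71.4% of those with a row. *Adam10* (2809) and *Adam17* (1356), whose products shed EGF family ligands, were among them, as were *Rhbdf1* (1296) and *Rhbdf2* (737), which carry ADAM17 to the cell surface.

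A low or missing value has limits of its own. Counting with HTSeq in its default mode leaves out reads that match more than 1 gene. Exons of other annotated genes covered 81.7% of the exon bases of *Fgf22* and 70.7% of those of *Angpt2*, both with a mean under 10. They covered 44.95% of those of *Fgf2*, which had a mean of 14.7. This overlap was counted on either strand, whichever strand a read came from, and its part in their means was not tested. A gene without a row was not analysed here and cannot be given a level.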

How the data were processed

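RNA from 3 *Pkd1-/-* and 3 wild type mDCT15 samples was sequenced after ribosomal RNA depletion. The submitters' processing notes name Trim Galore 0.4.5, STAR 2.7.5a, HTSeq 0.11.0, DESeq2 1.22.0, R 3.5.3 and GRCm39. The deposited mean of the normalized counts, a signal that the authors averaged over both genotypes after scaling by size factors, was the only column used. The other 5 numeric columns of the deposited table hold the authors' own comparison of the genotypes (fold change, standard error, statistic and p-values) and were not used, so the count test planned for single samples was not run. The study states a minimum count per sample and gene for its comparison, while the table lists means down to 0.618. Exon lengths, positions, exon overlap on either strand and the 250 bases before the canonical start came from GENCODE vM39 on GRCm39, in which 20122 identifiers (97.6%) were found. The authors counted with an older annotation of the same build. Levels per kb divide the mean by the union of exons. Members with a row were named, with full values for means of at least 100, except 1 that is not reported here. Members and lists were chosen with earlier results of these data known. Helper functions were tested on simulated data. Python 3.11.15, numpy 2.4.6, pandas 2.3.3 and matplotlib 3.10.9 were used.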

Additional observations from a re-analysis of the deposited data

How the results depend on the processing

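The number of members past the minimum mean was 26 at 100 and moved to 40 at a minimum of 10 and to 8 at 1000. It was 30 at 50, 25 at 200, and 25 when only members with under 20% of overlapped exon bases were counted, a choice made after seeing the data. Families with both sides past the minimum numbered 4 at 10, 50, 100 and 200, and 0 at 1000. The median percentile of the members among all genes was 47.6, moved to 44.2 among genes whose mean reached 1, and moved to 24.7 among protein-coding genes, the last chosen after seeing the data. In the lists of genes that act around the receptors, 71 passed a mean of 100, 75 passed 10 and 44 passed 1000. Of 28 chosen ratios of levels per kb, recomputed with the longest transcript and the mean transcript length after seeing the data, 27 kept their direction. The ratio of FGF receptors to their ligands turned from 0.804 to 1.40 with the longest transcript and to 1.97 with the mean transcript length, and 8 others moved by over 1.5 times. The chosen ratios leave out pairs of members whose order turned, of which only some are named here. *Axl* against *Ddr1*, *Hbegf* against *Vegfa* and *Csf1r* against *Tyro3* turned with the longest transcript. *Pdgfb* against *Vegfb* and against *Vegfa*, and *Erbb2* against *Ddr2*, turned with the mean transcript length. The count is therefore no measure of how stable the order of all members is. No paired analysis was possible because the result comes from no test: only a mean over all samples was used. For the same reason another normalization, a low-count filter, the replicate block and leaving out each replicate were not run for the genotype comparison. Depth limits the low genes most, since a mean near 1 rests on few reads.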
